A study of Mus musculus with 6 samples.

Results

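The bone morphogenetic proteins (BMPs) and the activins are secreted dimers of the transforming growth factor beta family, and 10 genes of this signaling system were followed here through every library of the series. They were 3 BMP ligands (*Bmp2*, *Bmp4* and *Bmp7*), the 2 activin beta subunits (*Inhba* and *Inhbb*), 4 receptors (*Bmpr1a*, *Bmpr2*, *Acvr1* and *Acvr2a*) and the activin inhibitor follistatin (*Fst*). They were chosen by name and role, with earlier results of these data known, and all 10 were among the 23420 genes counted. BMP and activin dimers bring type I and type II receptor kinases together, and the active receptors phosphorylate Smad proteins that carry the signal into the nucleus. Extracellular proteins such as follistatin hold the ligands away from the receptors. In the mouse uterus this system is known for its place in implantation and decidualization, and in the early embryo for its place in patterning.

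The question behind the series was how leukemia inhibitory factor (*Lif*), a cytokine needed for implantation, acts on the uterine epithelium and on the blastocyst. RNA was sequenced from the laser-microdissected luminal layer of the uterus and from flushed blastocysts at 8 pm on day 4 of pregnancy. Control females were *Lif*-floxed/floxed and received PBS, and *Lif* eKO females were *Lif*-floxed/floxed with *Ltf*-Cre/+, whose Cre is driven by a promoter active in the uterine epithelium, and also received PBS. The females of the last group had the *Lif* eKO genotype and were given recombinant *Lif* (rLif, 20 µg per head) at 10 am and 6 pm, with collection 2 h after the last injection. Every female, the controls included, therefore carried floxed *Lif* alleles. The blastocysts came from the same 3 kinds of female, and their own genotype was labelled *Lif*-floxed/+. Material from several animals was pooled into 1 library per group, so the series holds 6 libraries with no replicate, and no p-value is given for any difference.

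In place of a test, a rule of size was used. A gene was called when every point of the exact 95% interval of the ratio of its counts in 2 libraries was more than 2-fold up or more than 2-fold down (a log2 ratio above 1 or below -1), and it was tested when it had at least 10 counts over the 3 libraries of a tissue. This interval covers counting error only, so the rule compares 2 libraries and not 2 conditions, and it carries no check against a replicate. The verbs "rose" and "fell" are kept for genes past it. Library totals ran from 23850565 to 28460465 counts in the luminal layer and from 18996158 to 19638852 in the blastocysts. In the luminal layer the targeted gene *Lif* had 0 counts in the control, 28 in the *Lif* eKO and 0 in the rLif-treated library. The study places *Lif* in the uterine glands before embryo attachment, so 0 counts in the luminal control do not go against its label. The 28 counts in the *Lif* eKO library stood out, since no other luminal library had any. The deletion described by the study spares part of the gene and is confined to the epithelium, so these counts alone do not contradict the label. Their source was not tested. Because of them the luminal groups are named below as the libraries labelled control, *Lif* eKO and rLif-treated *Lif* eKO. The deposited counts do not say which exons the *Lif* reads covered. Luminal epithelial markers were all detected in the luminal libraries, with 9914 to 12140 CPM (counts per 1000000 of the scaled library size) in sum over 10 genes, and trophectoderm markers summed to between 2837 and 3159 CPM in the blastocysts. Of the 10 luminal epithelial markers 9 had counts in every blastocyst library (6987 to 7490 CPM in sum, with keratins that the embryo also expresses), and *Wnt7a* alone had none.

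In the luminal layer *Bmp7* led among the 5 ligand genes of the 10, and *Bmpr1a* and *Acvr1* led among the 4 receptor genes. Levels of different genes are compared here only per length, as RPKM (CPM divided by the exon length in kilobases). In the library labelled control the order was *Bmpr1a* at 9.89 RPKM, *Acvr1* at 8.96, *Bmp7* at 8.86, *Bmp2* at 3.01, *Bmp4* at 2.05, *Acvr2a* at 2.02, *Inhbb* at 1.29, *Fst* at 1.19, *Bmpr2* at 0.802 and *Inhba* at 0.363. The 95% Poisson intervals of the first 3 overlapped in neighbouring pairs, as did those of *Bmp4* and *Acvr2a* and those of *Inhbb*, *Fst* and *Bmpr2*, so these neighbours were not apart beyond counting error. In the library labelled *Lif* eKO the order ran from *Bmpr1a* (11.3 RPKM) through *Bmp7* (9.19), *Acvr1* (4.59) and *Acvr2a* (3.55), each apart from the next, to *Inhbb* in the last place at 0.0164 RPKM. In the rLif-treated library *Acvr1* (9.11), *Bmpr1a* (8.32) and *Bmp7* (8.22) led with overlapping neighbours, and *Inhbb* (0.244) and *Inhba* (0.226) came last. *Bmp7* alone made up 56.9% of the summed RPKM of the 5 ligand genes in the control library, 72.3% in the *Lif* eKO library and 68.0% in the rLif-treated one. Outside the 10 genes, the ligand gene *Gdf7* stood above *Bmp7* in each luminal library, at 14.95, 24.42 and 11.04 RPKM in the same order. *Gdf10*, at 18.04, 8.604 and 14.65 RPKM, did so in the control and the rLif-treated library.

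**Figure D1:**
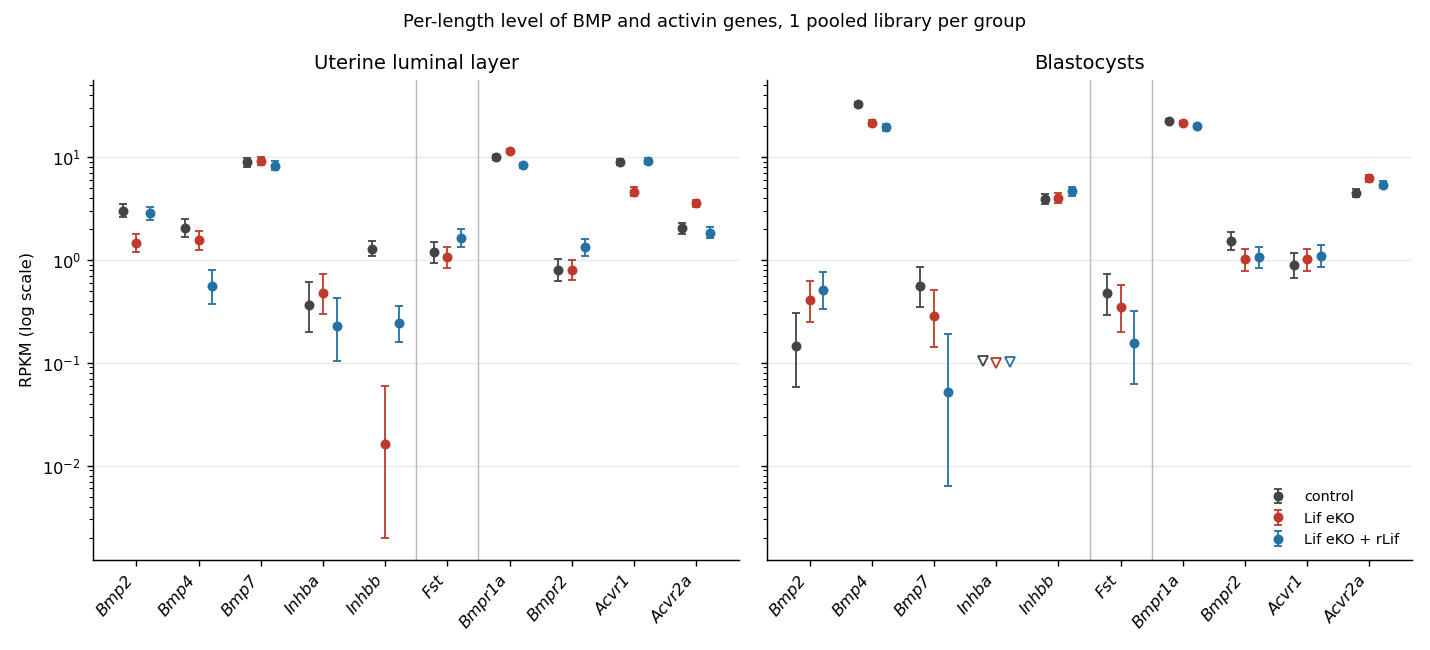
Level of each gene in each library, as RPKM on a log axis, with the exact 95% Poisson interval of its count as the bar, which covers counting error only. Open triangles mark the level that 3 counts would give where a gene had 0 counts (*Inhba* in blastocysts), and vertical lines part ligands, follistatin and receptors. In the luminal layer *Inhbb* spans 0.0164 to 1.29 RPKM, while *Bmp7* stays between 8.22 and 9.19 RPKM.

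*Inhbb*, which encodes the beta B subunit of activin B and inhibin B, showed the widest difference of the 10 genes in the luminal layer. The library labelled control held 138 counts of it (5.47 CPM), the one labelled *Lif* eKO 2 counts (0.0696 CPM) and the rLif-treated one 27 counts (1.04 CPM). It was thus nearly absent from the *Lif* eKO library and intermediate in the rLif-treated one. *Inhbb* fell by 6.29 on the log2 scale between the *Lif* eKO and the control library (interval of the log2 ratio -9.35 to -4.41), a ratio that rests on 2 counts. It was the only 1 of the 10 genes past the size rule in this comparison, in which 17.2% of all 15694 genes tested were past it. The rLif-treated library was 14.9-fold higher than the *Lif* eKO library (log2 ratio 3.90, interval 1.90 to 7.01), again the only 1 of the 10, beside 15.6% of all genes. It was still 5.27-fold below the control library (log2 ratio -2.40, interval -3.05 to -1.80). These 3 comparisons share their libraries and are not separate evidence. In bulk RNA, fewer cells of a type and less RNA per cell cannot be told apart.

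*Inhbb* lies on the minus strand of chromosome 1 (GRCm38, 119415465 to 119422248) in 2 exon intervals, and no other GENCODE gene lies within it. Of 4696 genes of similar mean luminal level, the 3 whose pattern over the 3 luminal libraries lay nearest to it were *Tenm4* (39, 0 and 7 counts in the control, *Lif* eKO and rLif-treated library), the skeletal muscle actin *Acta1* (58, 1 and 11) and the microRNA gene *Mir1247* (42, 0 and 7). Their Euclidean distances from *Inhbb* in centred log2 CPM were 0.394, 0.42 and 0.451. Markers of other uterine cells also differed among the luminal libraries. The 6 smooth muscle markers summed to 70.4 CPM in the control, 50.5 in the *Lif* eKO and 31.4 in the rLif-treated library, with 4 of the 6 past the size rule downwards between the rLif-treated and the control library. The 11 stromal markers summed to 858, 1336 and 906 CPM, and 2 of them were past it upwards in the *Lif* eKO against the control library. Of the 7 gland markers 5 were matched, with a sum of 15.5, 10.8 and 32.5 CPM. The gland factor *Foxa2* had few counts in any luminal library, with 3 in the control, 0 in the *Lif* eKO and 10 in the rLif-treated one. In the same order the 6 endothelial markers summed to 47.9, 69.4 and 94.1 CPM, and 2 of them were past the rule upwards between the rLif-treated and the control library. The 7 matched immune markers summed to 880, 735 and 765 CPM. The part of these cells in the differences of any of the 10 genes was not tested.

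The other activin subunit, *Inhba* (beta A), was scarce in the luminal layer. Its counts were 14 for the control, 21 for the *Lif* eKO and 9 for the rLif-treated library. With so few counts its log2 ratio of *Lif* eKO to control, 0.40, had an interval from -0.65 to 1.49, and a difference of 2-fold could not be told from none at this depth.

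Among the BMP ligands, *Bmp2*, known as a driver of stromal decidualization, was counted 191 times (7.57 CPM) in the control, 106 times (3.69 CPM) in the *Lif* eKO and 186 times (7.14 CPM) in the rLif-treated library. The *Lif* eKO library was the lowest and the other pair were nearly level. The log2 ratio of *Lif* eKO to control was -1.04 (interval -1.39 to -0.69) and that of rLif-treated to *Lif* eKO was 0.95 (0.60 to 1.31). Both intervals were clear of 0 but reached inside the 2-fold limit, so neither was called.

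*Bmp4*, a ligand known from the uterine stroma and the early embryo, followed another order. Its counts were 103 (4.08 CPM) in the control, 89 (3.10 CPM) in the *Lif* eKO and 29 (1.11 CPM) in the rLif-treated library, the last of which stood below both others. *Bmp4* fell by 1.87 on the log2 scale between the rLif-treated and the control library (interval of the log2 ratio -2.52 to -1.27). With *Inhbb* it made 2 of 10 genes past the rule in that comparison, against 9.16% of all genes. Against the *Lif* eKO library its log2 ratio was -1.48 (-2.13 to -0.86), which was not called. The exons of *Bmp4* share bases with those of *Gm15217* on the other strand, so its counts are uncertain to the extent that reads from that gene entered or left them.

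*Bmp7*, a BMP ligand of epithelia, was the steadiest of the ligands. It had 440 counts (17.4 CPM) in the control, 519 (18.1 CPM) in the *Lif* eKO and 421 (16.2 CPM) in the rLif-treated library. The log2 ratio of *Lif* eKO to control was 0.05 (-0.13 to 0.24), an interval well within 2-fold. Those of the rLif-treated library were -0.11 (-0.30 to 0.09) against control and -0.16 (-0.35 to 0.03) against *Lif* eKO.

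The receptors differed from each other in direction. *Acvr1*, a type I receptor that serves BMPs and is also called ALK2, had 746 counts (29.6 CPM) in the control, 435 (15.2 CPM) in the *Lif* eKO and 782 (30.0 CPM) in the rLif-treated library. As for *Bmp2*, the *Lif* eKO library was the low one. *Acvr2a*, a type II receptor for activins and BMPs, had 290 counts (11.5 CPM), 579 (20.2 CPM) and 272 (10.4 CPM) in the same order, with the *Lif* eKO library the high one.

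The log2 ratio of *Lif* eKO to control was -0.96 (-1.14 to -0.79) for *Acvr1* and 0.81 (0.61 to 1.02) for *Acvr2a*. Between the rLif-treated and the *Lif* eKO library it was 0.99 (0.82 to 1.16) and -0.95 (-1.16 to -0.74). All 4 intervals were clear of 0, and none lay wholly beyond 2-fold. Between the rLif-treated and the control library the ratios were 0.02 (-0.12 to 0.17) for *Acvr1* and -0.14 (-0.38 to 0.11) for *Acvr2a*. In the makeup of the receptors this appeared as a share of *Acvr1* in the summed receptor RPKM of 41.3% in the control, 22.7% in the *Lif* eKO and 44.2% in the rLif-treated library, while that of *Acvr2a* was 9.33%, 17.5% and 8.93%. The exons of *Acvr2a* share bases with those of *Orc4* on the other strand, and its counts are uncertain to that extent.

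*Bmpr1a*, the type I receptor also called ALK3, was the most abundant or second most abundant of the 10 genes per length in every luminal library. Its counts were 1369 (54.2 CPM) in the control, 1783 (62.1 CPM) in the *Lif* eKO and 1187 (45.6 CPM) in the rLif-treated library. The log2 ratios were small, at 0.20 (0.09 to 0.30) for *Lif* eKO to control and -0.45 (-0.55 to -0.34) for rLif-treated to *Lif* eKO. An antisense gene overlaps exons of *Bmpr1a*, and another those of *Fst*, so that their counts are uncertain where reads were counted without strand. *Bmpr2*, the type II receptor dedicated to BMPs, had 71 counts (2.81 CPM), 81 (2.82 CPM) and 121 (4.65 CPM), so that the rLif-treated library was the high one. Its log2 ratio of rLif-treated to control was 0.72 (0.29 to 1.17) and was not called.

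*Fst*, which binds and neutralizes activins, was counted 70 times (2.77 CPM) in the control, 71 times (2.47 CPM) in the *Lif* eKO and 99 times (3.80 CPM) in the rLif-treated library. The log2 ratio of *Lif* eKO to control was -0.17 (-0.66 to 0.33). The rLif-treated library was the highest of the 3, with a ratio to *Lif* eKO of 0.62 (0.17 to 1.08) that was not called. Over all 10 genes the median log2 ratio was -0.08 for *Lif* eKO to control, -0.12 for rLif-treated to control and 0.23 for rLif-treated to *Lif* eKO, beside 0.0011, 0.0077 and -0.0043 over all genes tested.

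**Figure D2:**
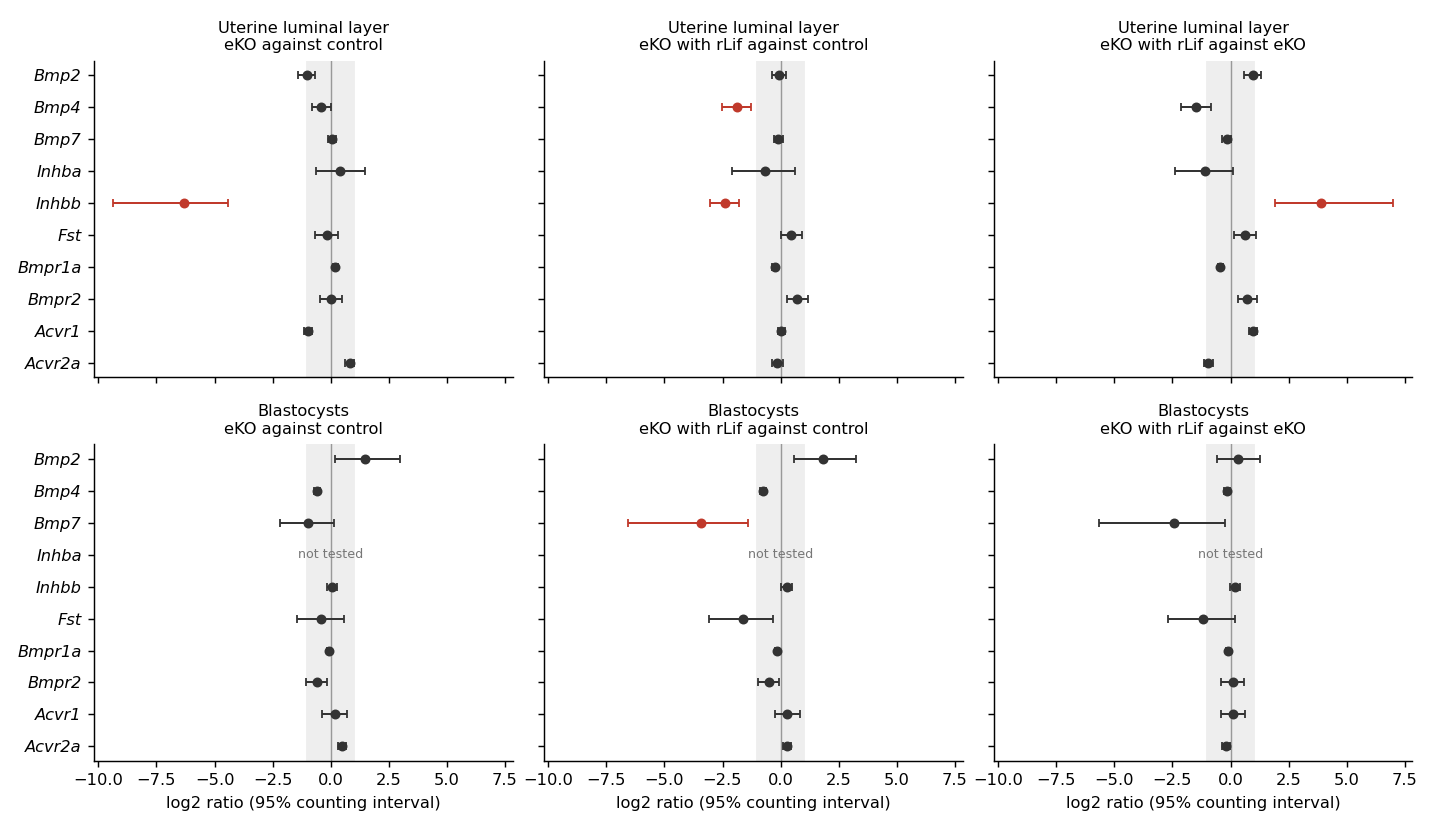
Log2 ratio between 2 libraries of each tissue for the 10 genes, with exact 95% counting intervals as bars. The grey band marks ratios within 2-fold and red marks genes past the size rule. In the luminal layer *Inhbb* is past it in all 3 comparisons, and in blastocysts *Bmp7* is past it in 1.

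Promoter sequence was at hand for 7 of the 10 genes, as RefSeq windows of GRCm38.p6. Start sites here are those of the windows. For *Inhba*, *Bmpr2* and *Bmp4* they lay upstream of the counted exons, and for *Inhba* the bases before the start ended at 16011850 and the counted exons began at 16014475. The 250 bases before the start site are shown for the 3 genes whose luminal counts took different orders among the libraries, namely *Inhbb* (nearly absent in the *Lif* eKO library), *Bmp4* (lowest in the rLif-treated one) and *Acvr2a* (highest in the *Lif* eKO one). They run 5′ to 3′ on the strand of the gene, and capitals mark each GC box (GGGCGG on either strand). *Inhbb* is at chr1:119422249-119422498 (minus strand), *Bmp4* at chr14:46390670-46390919 (minus strand) and *Acvr2a* at chr2:48813859-48814108 (plus strand).
Inhbb: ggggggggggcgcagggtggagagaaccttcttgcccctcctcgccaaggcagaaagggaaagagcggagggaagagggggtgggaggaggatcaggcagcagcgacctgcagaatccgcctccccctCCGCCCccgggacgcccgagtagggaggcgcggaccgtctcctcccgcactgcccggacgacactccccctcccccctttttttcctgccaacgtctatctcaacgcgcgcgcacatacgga
Bmp4: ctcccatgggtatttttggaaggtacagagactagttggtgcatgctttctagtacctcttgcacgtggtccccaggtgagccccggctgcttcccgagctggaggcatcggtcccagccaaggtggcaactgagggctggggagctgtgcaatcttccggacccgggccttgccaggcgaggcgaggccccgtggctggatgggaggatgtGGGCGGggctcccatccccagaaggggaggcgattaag
Acvr2a: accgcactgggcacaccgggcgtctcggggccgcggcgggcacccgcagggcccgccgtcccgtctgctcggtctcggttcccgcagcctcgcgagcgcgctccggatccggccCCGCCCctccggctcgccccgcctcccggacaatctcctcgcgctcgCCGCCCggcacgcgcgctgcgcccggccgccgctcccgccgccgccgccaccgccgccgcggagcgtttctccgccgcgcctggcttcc
A GC box was found in 6 of the 7 windows, against 32.7% of all 32851 RefSeq windows of this length. The 6 were those of *Acvr1*, *Acvr2a*, *Bmp4*, *Bmpr1a*, *Bmpr2* and *Inhbb*. They were rich in G and C, from 63.2% (*Bmp4*) to 85.6% (*Acvr1*), against a median of 52.4% over all windows. The 32.7% is not matched for this content. The one without a GC box, that of *Inhba*, held the letters of a TATA box (TATAAA on either strand) 91 to 86 bases before the start. These letters were found in 12.4% of all windows. The palindrome TTCNNNGAA, the core of a STAT site, was in none of the 7 and in 7.02% of all windows. The palindrome GGCGCC, known from BMP-responsive Smad elements, was in those of *Bmpr1a* and *Bmpr2*, and in 9.59% of all. Such matches describe the letters of these windows and were not tied to binding or to the counts.

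The rest of the pathway was read from 69 other genes, namely ligands, receptors and coreceptors, Smads, antagonists and known BMP target genes, of which 51 were tested in the luminal layer. Between the libraries labelled *Lif* eKO and control 14 of the 51 were past the size rule, 6 upwards and 8 downwards, beside 8.08% and 9.15% of all genes tested. Of the 10 target genes, 2 rose and 4 fell. *Id2*, which encodes an inhibitor of basic helix-loop-helix factors, rose 3.27-fold, with 10128 counts in the control, 37613 in the *Lif* eKO and 6092 in the rLif-treated library. The homeobox gene *Msx1*, known for its decline at the time of implantation, rose 3.40-fold, with 9439, 36545 and 16640 counts, which may include reads of its antisense gene. The 4 that fell were *Hey1* (617, 119 and 87 counts), a Notch and BMP target, the inhibitory Smad gene *Smad6* (1074, 402 and 380), *Id4* (691, 257 and 278) and *Id3* (5317, 2687 and 3820). The median log2 ratio of the 10 targets was -0.72, although *Id2* and *Msx1* moved the other way.

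Of the 13 tested antagonists, 2 rose and 3 fell between these libraries. *Bambi*, which encodes a kinase-less pseudoreceptor that damps BMP and activin signals, rose 5.16-fold, with 8933 counts in the control, 52469 in the *Lif* eKO and 7893 in the rLif-treated library. *Sostdc1*, a secreted BMP antagonist, fell 40.3-fold (log2 ratio -5.33, interval -6.66 to -4.27), with 248, 7 and 164 counts, the same order of libraries as *Inhbb*. *Smurf1*, a ubiquitin ligase for Smads and receptors, fell 3.14-fold (731, 265 and 627 counts), and *Crim1*, a membrane protein that binds BMPs, fell 3.06-fold (231, 86 and 317). *Bmper*, which encodes a secreted BMP-binding protein, had 0, 15 and 0 counts and was at least 4.40-fold higher in the *Lif* eKO than in the control library, against a floor of 3 counts per library.

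A ligand gene and 2 receptor genes completed the 14. *Bmp6* had 3, 31 and 8 counts, a 9.08-fold ratio whose log2 interval ran from 1.50 to 5.54. The type I receptor gene *Bmpr1b* rose 5.53-fold (17, 107 and 57 counts). *Amhr2*, the receptor gene of anti-Müllerian hormone, had 49, 0 and 33 counts and was at least 18.6-fold lower in the *Lif* eKO library. The Smads that carry BMP signals, *Smad1* (4088, 2547 and 3883 counts) and *Smad5* (3046, 1983 and 3341), were not called, and the lowest library of each was the *Lif* eKO one.

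Between the rLif-treated and the *Lif* eKO library 11 of the 51 genes were past the rule, 5 upwards and 6 downwards, beside 7.88% and 7.77% of all genes. *Sostdc1* rose 25.8-fold, *Crim1* 4.07-fold, *Chrd* (chordin, with 11, 9 and 43 counts) 5.27-fold and *Smurf1* 2.61-fold, and *Amhr2* was at least 12.1-fold higher. *Bambi* fell 6.03-fold, *Id2* 5.60-fold, the target gene *Atoh8* (157, 141 and 17 counts) 7.52-fold, the antagonist gene *Grem1* (21, 49 and 6) 7.40-fold and the ligand gene *Gdf9* (14, 56 and 11) 4.62-fold, and *Bmper* was at least 4.53-fold lower. *Chrd* shares exon bases with *Thpo*, and its counts are uncertain to that extent.

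Between the rLif-treated and the control library 6 of the 51 were past it, 1 upwards and 5 downwards, beside 4.12% and 5.04% of all genes. All 5 that fell were BMP targets, *Atoh8* by 3.25, *Hey1* by 2.87, *Smad7* (414, 342 and 145 counts) by 1.56, *Smad6* by 1.54 and *Id4* by 1.36 on the log2 scale. The inhibin alpha subunit gene *Inha* had 0, 4 and 18 counts and was at least 5.82-fold higher in the rLif-treated library. The median log2 ratio of the 10 targets was -1.07. In this comparison the scaling matters, since 45.0% of all calls were upwards with the scaling used and 29.9% with plain library totals, under which the median gene had a log2 ratio of -0.169. A change of scaling moves the log2 ratio of every gene by the same amount. It therefore cannot alter where these 5 targets lay relative to the median gene, and that place is no check on them.

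**Figure D3:**
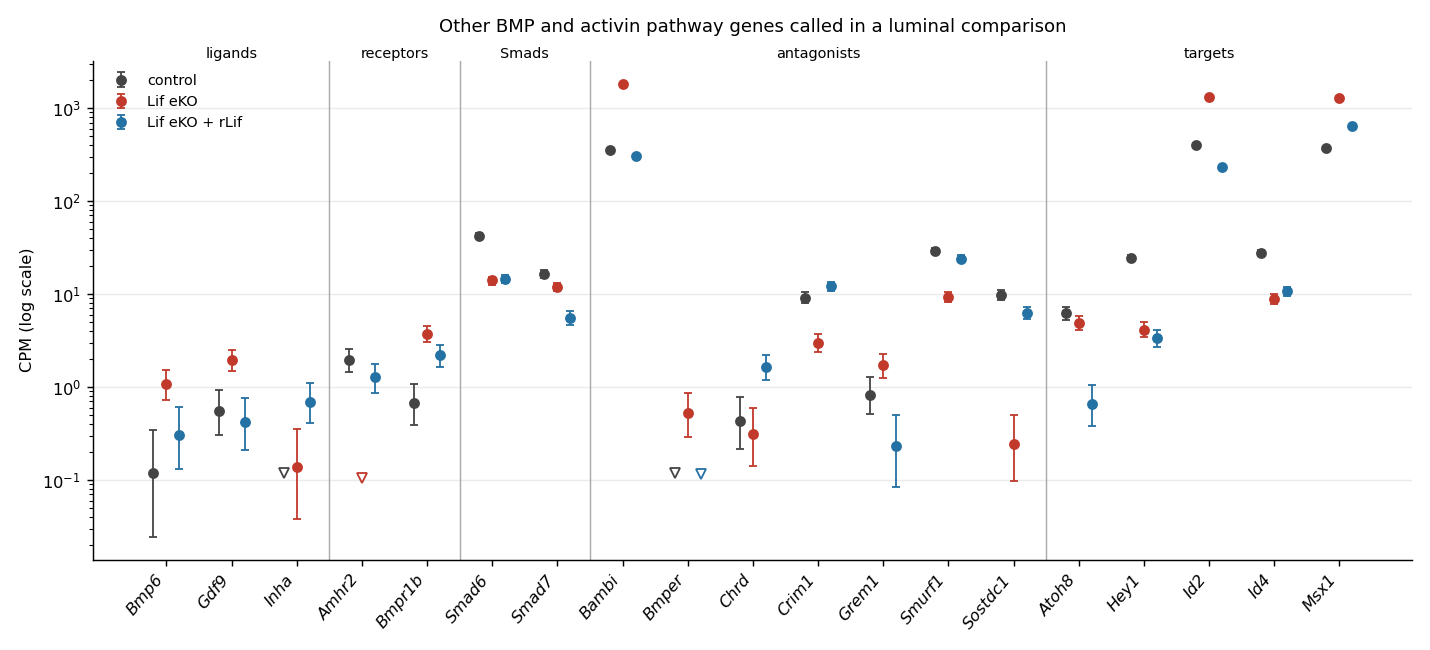
Level of the 19 other pathway genes called in a luminal comparison (*Id3*, also called, is not drawn) in the 3 luminal libraries, as CPM on a log axis with exact 95% Poisson intervals as bars, grouped by role. Open triangles mark the level of 3 counts where a gene had 0 counts. *Bambi*, *Id2* and *Msx1* stand highest in the library labelled *Lif* eKO, and *Sostdc1*, *Smurf1* and *Crim1* lowest in it.

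In blastocysts *Bmp4* led among the chosen ligand genes. It had 1240 counts (65.0 CPM) in control blastocysts and 840 (43.0 CPM) in those from *Lif* eKO females. Those from rLif-treated *Lif* eKO females had 752 (38.7 CPM). The control library was the high one for *Bmp4*. Outside the chosen genes, the ligand gene *Gdf3* stood above *Bmp4* in each blastocyst library. It reached 43.55, 39.78 and 46.69 RPKM in the same order, against 32.6, 21.55 and 19.4 RPKM for *Bmp4*. Per length the order in control blastocysts was *Bmp4* at 32.6 RPKM, *Bmpr1a* at 22.5, *Acvr2a* at 4.45, *Inhbb* at 3.87, *Bmpr2* at 1.53, *Acvr1* at 0.891, *Bmp7* at 0.56, *Fst* at 0.471, *Bmp2* at 0.146 and *Inhba* at 0, with overlapping intervals for *Acvr2a* and *Inhbb* and for each neighbouring pair from *Acvr1* downwards. The log2 ratio of *Bmp4* was -0.60 (-0.73 to -0.47) for *Lif* eKO to control and -0.75 (-0.88 to -0.62) for rLif-treated to control, both clear of 0 and both within 2-fold.

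The share of *Bmp4* in the summed RPKM of the chosen ligand genes was 87.7%, 82.1% and 78.9% in the control, *Lif* eKO and rLif-treated blastocysts. *Inhbb* came next among these genes, with 10.4%, 15.3% and 18.8%. Its counts were 314 (16.5 CPM), 333 (17.0 CPM) and 382 (19.7 CPM), and its log2 ratio of *Lif* eKO to control was 0.05 (-0.18 to 0.28). The gene that was nearly absent from the luminal library labelled *Lif* eKO was thus within 2-fold in the blastocysts of the same group. *Inhba* had 0 counts in all 3 libraries, which allows a level of up to 0.157 CPM in the control (3 counts).

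*Bmp2* and *Bmp7* were near the limit of detection in blastocysts. *Bmp2* had 7, 20 and 25 counts in the control, *Lif* eKO and rLif-treated library, lowest in the control, with a log2 ratio of rLif-treated to control of 1.81 (0.56 to 3.26) that was not called. *Bmp7* had 21, 11 and 2 counts in the same order. It fell by 3.42 on the log2 scale between the rLif-treated and the control library (interval of the log2 ratio -6.56 to -1.39), a ratio that rests on 2 counts. It was the only 1 of the 9 tested genes past the size rule there, against 4.94% of all 14873 genes tested. None of the 9 was past it for *Lif* eKO to control or for rLif-treated to *Lif* eKO, where 3.15% and 3.75% of all genes were. *Fst* had 21, 16 and 7 counts, and its log2 ratio of rLif-treated to control was -1.61 (-3.09 to -0.33), not called.

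The receptor genes of the blastocysts were led by *Bmpr1a*, with 2351 counts (123 CPM) in the control, 2289 (117 CPM) in the *Lif* eKO and 2143 (110 CPM) in the rLif-treated library. It held 76.6%, 72.3% and 72.8% of the summed receptor RPKM, and all of its log2 ratios lay between -0.16 and -0.07. *Acvr2a* had 482 counts (25.3 CPM), 685 (35.0 CPM) and 592 (30.4 CPM), with the control the lowest and a log2 ratio of *Lif* eKO to control of 0.47 (0.30 to 0.64). *Bmpr2* had 102, 69 and 73 counts, with the control the highest and a ratio of -0.60 (-1.06 to -0.15). *Acvr1*, so abundant in the luminal layer, had only 56, 65 and 70 counts here, and its ratio of 0.18 (-0.36 to 0.72) did not show a difference at this depth.

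Among the other pathway genes 48 were tested in blastocysts. Between *Lif* eKO and control 5 of them fell and none rose, while 1.86% of all genes were called downwards and 1.29% upwards. They were *Crim1* (322, 49 and 59 counts in the control, *Lif* eKO and rLif-treated library), the ligand genes *Bmp8b* (244, 39 and 14) and *Gdf9* (12, 0 and 32), and the antagonist genes *Fstl1* (105, 19 and 3) and *Chrdl1* (12, 0 and 4). Between rLif-treated and control 9 fell and none rose, while over all genes 3.99% were called downwards and 0.948% upwards. Among the 9 were *Nodal*, at 94, 113 and 11 counts (log2 ratio of rLif-treated to control -3.12, interval -4.17 to -2.22) and *Lefty1*, which encodes a *Nodal* inhibitor, at 192, 135 and 46 (-2.09, interval -2.59 to -1.62). Other genes of *Nodal* signaling were not called, such as *Lefty2* with 361, 705 and 491 counts and *Tdgf1* with 9410, 10121 and 9059. The other 7 that fell were *Fstl1*, *Bmp8b*, *Crim1*, the targets *Atoh8* (13, 30 and 0 counts) and *Id1* (98, 57 and 23), the coreceptor gene *Tgfbr3* (33, 16 and 5) and *Bmper* (78, 79 and 20). *Bmp8b* has a near-identical neighbour, *Bmp8a*, and its counts are uncertain for that reason.

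Between the rLif-treated and the *Lif* eKO blastocysts 4 of the 48 fell, namely *Nodal*, *Lefty1*, *Bmper* and *Atoh8*, and *Gdf9* was at least 10.7-fold higher, beside 2.83% of all genes called downwards and 0.914% upwards. Markers of maternal cells also differed among the blastocyst libraries. Of the 10 tested stromal markers 2 were past the rule downwards for *Lif* eKO to control and 4 for rLif-treated to control. The median log2 ratios were -1.03 and -1.17. The whole list of 11 summed to 175, 179 and 170 CPM, of which most was *Pdgfra*, a gene also on the primitive endoderm list, and the 10 others summed to 51.2, 33.9 and 29.6 CPM. Of the 9 tested luminal epithelial markers 3 were past the rule downwards for rLif-treated to control, and *Krt19* had 1401, 241 and 108 counts. The 7 matched immune markers summed to 65.7, 128 and 23.4 CPM. The markers of the inner cell mass, where *Nodal* is known to be expressed, summed to 1137, 1199 and 1315 CPM. The part of these cells in the differences of *Bmp7*, *Fst*, *Fstl1* and the other genes was not tested.

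**Figure D4:**
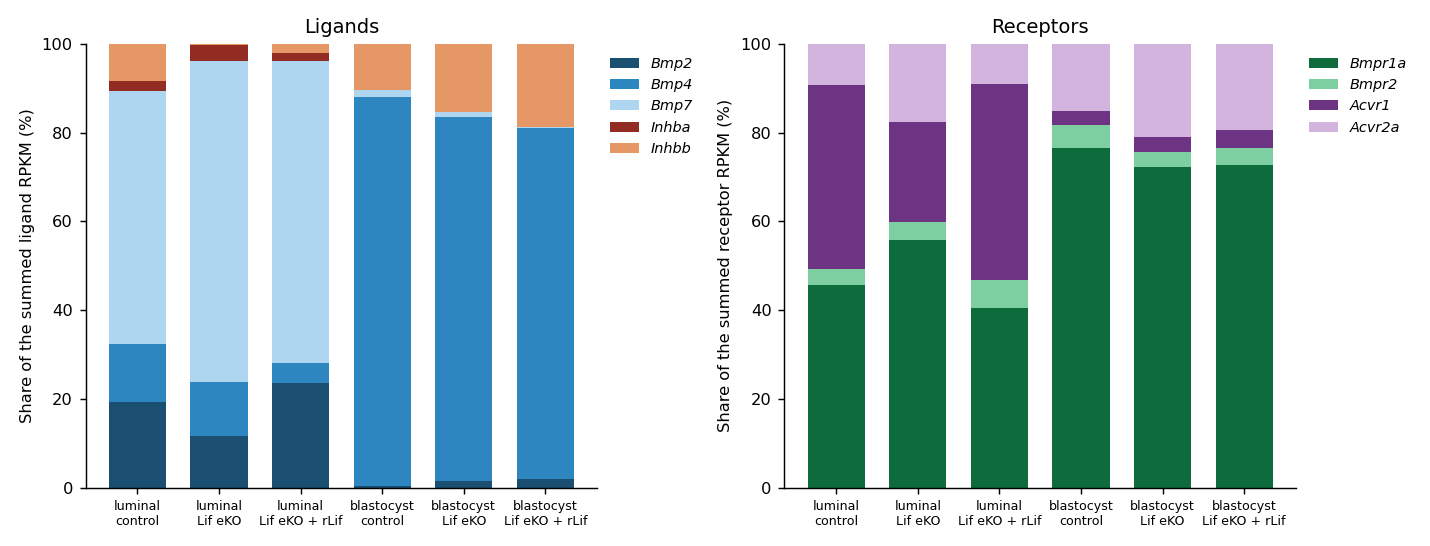
Share of each gene in the summed RPKM of the 5 ligand genes (left) and of the 4 receptor genes (right) in each library, in percent. *Bmp7* holds 56.9% to 72.3% of the luminal ligand sum and *Bmp4* 78.9% to 87.7% of that in blastocysts, and the luminal share of *Acvr1* is lowest, at 22.7%, in the library labelled *Lif* eKO.

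Set side by side on a scaling over all 6 libraries, the luminal layer and the blastocysts differed in which chosen ligand gene led. Among the chosen genes *Bmpr1a* was first or second per length in each of the 6 libraries. *Bmp7* ranged from 16.8 to 19.0 CPM in the luminal layer and from 0.0977 to 1.04 CPM in blastocysts, and *Bmp4* from 1.16 to 4.28 CPM in the luminal layer and from 36.7 to 61.6 CPM in blastocysts. Each of these pairs of ranges was apart, as were those of 7 more genes, 3 of which follow. *Acvr1* ranged from 15.9 to 31.2 CPM against 2.78 to 3.42 CPM in blastocysts, *Bmp2* from 3.88 to 7.94 CPM against 0.348 to 1.22 CPM, and *Inhbb* from 0.0732 to 5.74 CPM against 15.6 to 18.7 CPM.

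Over the 10 genes, 5 were higher in all 3 luminal libraries (*Bmp2*, *Bmp7*, *Inhba*, *Acvr1* and *Fst*), 4 were higher in all 3 blastocyst libraries (*Bmp4*, *Inhbb*, *Bmpr1a* and *Acvr2a*) and *Bmpr2* overlapped. Of all 17081 genes tested, 36.9% were higher without overlap in the luminal layer and 36.6% in blastocysts, so 9 of 10 is to be read beside a background of 73.5%. The 3 libraries of a tissue came from different groups and are not replicates.

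Within the control pair 6 of the 10 were past the size rule, 4 of them higher in the luminal layer and 2 in the blastocysts, beside 27.0% and 25.1% of all genes (52.1% together). *Bmp2* was 22.8-fold (log2 ratio 4.51, interval 3.44 to 5.85), *Bmp7* 17.5-fold (4.13, 3.50 to 4.84) and *Acvr1* 11.1-fold (3.48, 3.09 to 3.90) higher in the luminal layer, and *Inhba* was at least 3.91-fold higher. *Bmp4* was 14.4-fold (log2 ratio of luminal to blastocyst -3.85, interval -4.15 to -3.56) and *Inhbb* 2.72-fold (-1.44, -1.74 to -1.15) higher in the blastocysts. In the *Lif* eKO pair 4 of the 10 were past it upwards in the luminal layer and 2 downwards, against 28.8% and 28.0% of all genes (56.8% together). In the rLif-treated pair 4 were past it upwards and 4 downwards, against 29.3% and 26.3% (55.6% together). The ratio for *Inhbb* was -7.82 (-10.9 to -5.96) in the *Lif* eKO pair, where the luminal library had 2 counts, and -4.11 (-4.73 to -3.55) in the rLif-treated pair.

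Of the 57 other pathway genes tested, 25 were past the rule towards the luminal layer and 17 towards the blastocysts in the control pair, beside 27.0% and 25.1% of all genes. For the 14 tested antagonists these counts were 6 and 4, and for the 11 receptors and coreceptors 5 and 3. Higher in the luminal layer were the BMP antagonist gene *Nog* (850 counts in the luminal and 4 in the blastocyst control library), *Sostdc1* (248 and 0) and the targets *Id1* (4623 and 98), *Hey1* (617 and 10) and *Id4* (691 and 12). Higher in the blastocysts were *Nodal* (0 and 94), *Bmp8b* (0 and 244) and the nodal coreceptor gene *Tdgf1*, which lay between 442 and 502 CPM there and at no more than 0.0799 CPM in the luminal layer. Ligand genes of the growth and differentiation factor group went both ways, with *Gdf7* and *Gdf10* higher in the luminal layer and *Gdf3* and *Lefty2* higher in the blastocysts.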

How the data were processed

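The deposited values were whole-number counts per gene from paired-end reads, made by the authors with HISAT2 on GRCm38/mm10 and featureCounts of Subread 2.0.0, per the submitters' processing notes. The study's methods name RPKM, but the tables hold counts with unequal totals. Libraries were made with the SMART-seq v4 kit, and the strand and multimapping settings are not given in the sources used here. SMART-seq amplification without molecular identifiers means that intervals and floors cover counting error only. TMM factors from edgeR 4.0.16 were taken within a tissue, or over all 6 libraries for the tissue comparison, and multiplied the totals. CPM and RPKM (summed exon length of the table) carry exact 95% Poisson intervals, and ratios exact Clopper-Pearson intervals (scipy 1.17.1). A library at 0 was given a floor of 3 counts, and a pseudocount of 0.5 was used for medians and nearest profiles. The size rule was tested on simulated data with counting error only. That test cannot show how the rule behaves under amplification or variation between animals. Each group was named from its labels. Total counts, DESeq2 1.42.0 size factors, other filters, other limits and an edgeR exact test with an assumed dispersion were tried as alternatives. Named were the 10 genes, called pathway genes (at most 12 a comparison, those farthest from 0, with *Id3*, *Crim1*, *Smad1*, *Smad5*, *Krt19* and, in blastocysts, *Lefty2* and *Tdgf1* added after their values were seen), and the 3 genes nearest to *Inhbb*. The members and lists were chosen with earlier results of these data known.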

Additional observations from a re-analysis of the deposited data

Results flagged for a closer look

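In 3 cases a gene went opposite ways in the luminal layer and in the blastocysts under the same contrast, with both counting intervals clear of 0. Intervals clear of 0 were common over all genes. They were found for between 10384 and 11724 of 15694 genes in a luminal comparison and for between 6668 and 7865 of 14873 in a blastocyst one. How many of all genes went opposite ways was not counted, so the 3 cases have no background to be read against. With 1 library per group the difference between the tissues was not tested. *Bmp2* had a log2 ratio of *Lif* eKO to control of -1.04 in the luminal layer and of 1.48 in blastocysts, the latter from 20 against 7 counts. *Inhbb* had a log2 ratio of rLif-treated to control of -2.40 in the luminal layer and of 0.25 in blastocysts. *Bmpr2* had a log2 ratio of rLif-treated to control of 0.72 in the luminal layer and of -0.51 in blastocysts.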

How the results depend on the processing

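No paired analysis was possible because each group was 1 library without a replicate number, and for the same reason no library was left out. Each of the 57 log2 ratios within a tissue kept its side of the size rule under total counts, DESeq2 size factors and totals without the 20 most abundant genes, and 54 kept their sign under all 3. The exceptions were luminal ratios near 0, which were -0.154 (total counts) and -0.116 (without the top 20) against 0.0236 for *Acvr1* (rLif-treated to control), -0.0167 (total counts) against 0.0523 for *Bmp7* (*Lif* eKO to control), and -0.0648 and -0.0126 against 0.0042 for *Bmpr2* (*Lif* eKO to control). The number of genes called depended on the limit. With an interval beyond 0 it was 5 of 10 for luminal *Lif* eKO to control, 4 for rLif-treated to control and 8 for rLif-treated to *Lif* eKO, 4, 8 and 4 for the same blastocyst comparisons, and 10 for the control pair of tissues. With a limit of 4-fold it was 0 for luminal rLif-treated to control and to *Lif* eKO and for blastocyst rLif-treated to control, 3 for the *Lif* eKO and 5 for the rLif-treated pair of tissues. For these 3 tissue counts the calls over all 17081 genes were 14380 (beyond 0, control), 5781 and 5668. With the point ratio beyond 2-fold it was 2 for luminal *Lif* eKO to control and 3 for rLif-treated to *Lif* eKO, and 1, 3 and 2 for the blastocyst comparisons. A filter of 50 counts removed blastocyst *Bmp7*, leaving 0. An edgeR exact test at an assumed dispersion of 0.1 left 0 for both rLif-treated to control comparisons, and at 0.4 it left 0 in each comparison within a tissue that had a call. Over all genes these limits moved the calls within the luminal layer from between 1438 and 2704 to between 10384 and 11724 (beyond 0), 295 and 868 (4-fold), 3349 and 4807 (point ratio), 342 and 1250 (dispersion 0.1) or 0 and 36 (dispersion 0.4), and in blastocysts from between 468 and 734 to between 6668 and 7865, 93 and 149, 2106 and 2614, 58 and 124, or 0 and 0, and with the 50-count filter to between 209 and 447. The counts of *Inhbb*, *Inhba* and blastocyst *Bmp2*, *Bmp7* and *Fst* are the ones that depth limits most.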
